A study of Glycine max with 10 samples.

Results

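A group of 145 soybean genes, out of 54154 with values (0.268%), was chosen for a transcript level highest 6 hours after imbibition (6-HAI). The level, measured in the embryonic axis, also had to be lower by 24-HAI. The genes were chosen by their FPKM, a transcript level scaled to transcript length and to the number of mapped fragments. A member had at least 5 FPKM at 6-HAI, its highest value there, at least 2.4 times the FPKM of dry seeds and of 24-HAI, and at least 1.5 times that of 3-HAI. RNA came from axes of cultivar BRS 284, separated from the cotyledons of dry seeds or of seeds imbibed on wet cotton at 28 °C until 3, 6, 12 or 24-HAI. The authors made 10 libraries, with 2 biological replicates (20 seeds each) at each of 5 times, and a gene has a single FPKM per time that stands for both. No gene was altered and no agent besides water was applied. The imbibed seeds were kept in a chamber with a 12/12 photo-period. Time after imbibition and time in the light cycle therefore cannot be told apart. There is no spread between replicates behind these values, so no SD or p-value is given and each difference below is a difference between single values without a replicate check. The table holds no counts, so the counting error of a single value was not computed. In such bulk RNA, a change in the number of cells of a type and a change in RNA per cell cannot be told apart.

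The embryonic axis is the part of the seed that grows into the seedling, while the cotyledons hold most of the reserves. A mature dry axis keeps a set of messenger RNAs made during seed maturation. Once water enters, transcription resumes, the stored messages decay and new ones are made, and germination ends when the radicle emerges. Fermentation enzymes, repair proteins and chaperones are among the products known from early imbibition in many species.

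The 54154 identifiers belong to version 1.1 of the reference genome, and 0 of them matched the RefSeq gene table, so the genes are described by identifier and position, and sequences were not used here. The study's text pairs 34 identifiers with a role, and 0 of these are members. The paper also describes fermentation genes, for pyruvate decarboxylase and alcohol and lactate dehydrogenase, as highest at 6-HAI. Its text gives no identifiers for them, so whether they are members was not examined. The text-named gene closest to the rule was Glyma13g07590, a LOB domain transcription factor gene, with 1.23 FPKM before imbibition, then 103, 124, 30.4 and 10.04 FPKM through the later times. It missed the group on the rise from 3-HAI to 6-HAI, which was 1.21-fold. The AIP2 ligase gene Glyma17g33631, whose Arabidopsis counterpart targets the seed regulator ABI3 for degradation, also had its maximum at 6-HAI but stood at 9.56, 23.2, 24.6, 18.9 and 21.2 FPKM from dry to 24-HAI, without the later fall. The ABI3 genes Glyma08g47240 and Glyma18g38490, regulators of seed maturation, had 62.1 and 78.8 FPKM in dry seeds and 2.70 and 7.11 at 24-HAI. Glyma18g38490 was highest at 3-HAI, with 143 FPKM. The paper reports the late fall of both genes from these same data, so it is no independent check of the time labels. It also leaves the order of 3, 6 and 12-HAI unchecked. The tissue label was not checked, since no markers of axis or cotyledon were fixed.

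The limits cut a continuous range. At 5 FPKM or more, 1462 genes had their highest value at 6-HAI. Of these, 621 also reached 2.4 times the dry value, 239 of the 621 also fell to the limit by 24-HAI, and 145 of the 239 also rose 1.5-fold from 3-HAI. Genes that failed a single limit numbered 42 for the dry seed, 94 for 3-HAI and 173 for 24-HAI. Just inside the dry limit were Glyma03g14970, Glyma13g29974 and Glyma08g20690, with ratios of 2.41, 2.44 and 2.46. Just outside it were Glyma17g37020, Glyma10g28900 and Glyma14g17660, with 2.39, 2.37 and 2.35. Glyma10g28900 nevertheless had a tall peak, with 99.0 FPKM before imbibition, then 52.0, 234, 56.9 and 28.4 FPKM through the later times.

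At the 3-HAI limit, Glyma15g01610, Glyma20g16920 and Glyma13g05230 lay inside with 1.51, 1.52 and 1.52 times the 3-HAI value, and Glyma20g36960, Glyma13g32050 and Glyma15g02840 outside with 1.497, 1.48 and 1.48. At the 24-HAI limit, Glyma12g35290, Glyma18g53860 and Glyma07g04820 lay inside with ratios of 2.42, 2.43 and 2.44, and Glyma02g13530, Glyma03g02500 and Glyma08g45620 outside with 2.35, 2.33 and 2.32. At the minimum, Glyma12g35290, Glyma14g34231 and Glyma06g16610 had 5.03, 5.23 and 5.26 FPKM at 6-HAI. Below it, Glyma17g33340, Glyma01g41820 and Glyma13g23020 had 4.68, 4.63 and 4.63 FPKM. Genes next to a limit therefore differ from excluded ones by a few percent of a single value.

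Peak levels covered more than a 100-fold range. At 6-HAI, members ran from 5.03 to 678 FPKM with a median of 26.0. Of the 145, 24 reached 100 FPKM, 91 lay between 10 and 100, and 30 stayed under 10. Their median before imbibition was 1.88 FPKM, with 8.63 by 3-HAI, 9.44 by 12-HAI and 4.52 by 24-HAI. Over the 33358 genes that reached 1 FPKM at some time point, here called expressed, the medians from dry to 24-HAI were 4.42, 5.78, 6.09, 6.55 and 6.43. Expressed as percent of each gene's 6-HAI value, the median member stood at 7.59% before imbibition, 39.3% by 3-HAI, 40.9% by 12-HAI and 20.5% by 24-HAI. The rule limits the 3-HAI share to that of a 1.5-fold rise and leaves 12-HAI free up to the peak, so these shares are not compared with each other.

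**Figure D1:**
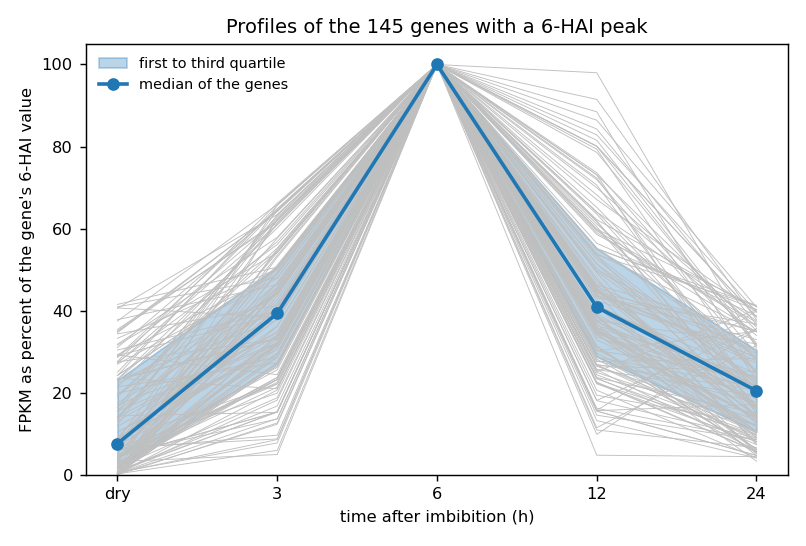
FPKM at each time point as percent of the gene's own 6-HAI value (vertical axis) in dry seeds and over the later times (horizontal axis in hours, time points evenly spaced), with a grey line for each of the 145 genes, a blue line for their median and a band for the interquartile range. The median passes through 7.59%, 39.3%, 100%, 40.9% and 20.5%, and the lines spread most at 12-HAI, from 4.77% to 98.0%.

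The 10 genes with the highest level at 6-HAI held 43.3% of the FPKM summed over the members at that time. Glyma05g08400, on chromosome 5 from 8321606 to 8325116, was the highest of the group, with 2.65 FPKM before imbibition, then 194, 678, 277 and 71.4 FPKM through the later times. Its FPKM at 6-HAI was 255 times that of dry seeds. Glyma18g01330, on chromosome 18 from 692176 to 695176, had 1.89 FPKM before imbibition, then 148, 557, 240.2 and 205 FPKM through the later times, a 295-fold rise over the dry seed. These members combined a low dry level with over 100 times as much at 6-HAI, and Glyma18g01330 kept more of it at 24-HAI than the other genes in the top 10.

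Glyma17g12610, on chromosome 17 from 9498681 to 9506155, had 12.1 FPKM before imbibition, then 115, 495, 185 and 103 FPKM through the later times. Glyma05g31580, on chromosome 5 from 36712993 to 36714422, had 64.1 FPKM before imbibition, then 231, 455, 122 and 39.6 FPKM through the later times. Glyma12g34660, on chromosome 12 from 37841669 to 37842672, had 59.5 FPKM before imbibition, then 278, 447, 211 and 55.9 FPKM through the later times. Glyma05g31580 and Glyma12g34660 had the highest dry levels of the top 10, at 64.1 and 59.5 FPKM, and at 24-HAI both were below that starting level. Glyma04g41990, on chromosome 4 from 47776111 to 47779300, had 5.95 FPKM before imbibition, then 81.0, 349, 89.7 and 67.1 FPKM through the later times. Glyma06g12780, on chromosome 6 from 9979015 to 9982400, had 13.6 FPKM before imbibition, then 77.6, 303, 132 and 99.97 FPKM through the later times. After 12-HAI this gene changed less than most members, at 0.757 times its 12-HAI value against a median of 0.433 over the members.

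The remaining genes of the top 10 were Glyma08g14810 with 26.7, 122, 309, 108 and 36.0 FPKM from dry to 24-HAI, Glyma19g00870 with 8.91, 111, 259.9, 108 and 56.0 FPKM, and Glyma11g35870 with 4.94, 79.9, 259.8, 79.3 and 30.5 FPKM. All 10 had a higher FPKM at 3-HAI than in dry seeds, and all 10 had lost more than 50% of the peak value by 12-HAI.

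**Figure D2:**
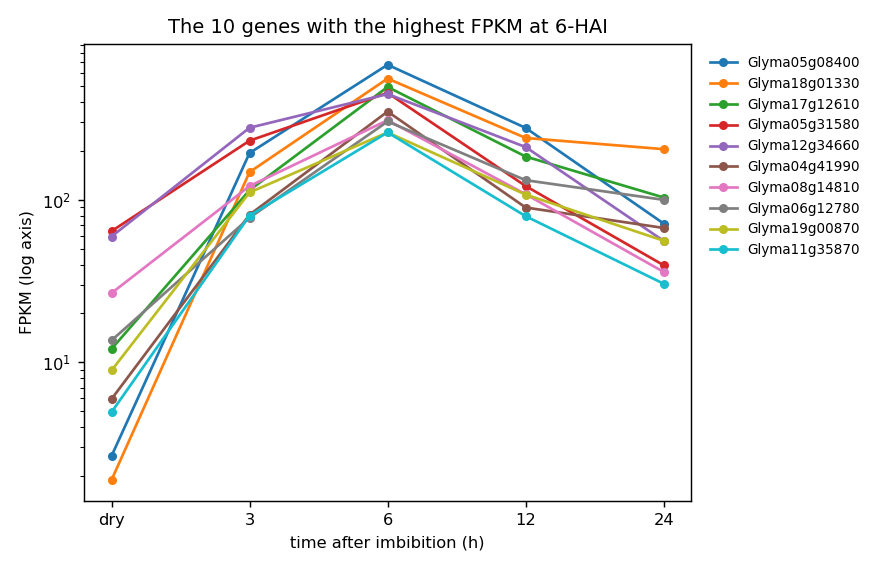
FPKM on a logarithmic vertical axis against time after imbibition (evenly spaced time points) for the 10 genes with the highest value at 6-HAI, 1 line and colour per gene and 1 point per time point. The 10 values at 6-HAI lie between 259.8 and 678 FPKM, while the dry values spread from 1.89 to 64.1 FPKM.

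Most members had already risen by 3-HAI. By that time 99 of the 145 genes (68.3%) had risen at least 2.4-fold with 1 FPKM or more, where 11.5% of expressed genes had, and 0 had fallen by that measure (1.32% of expressed genes). For the same members, the count of 99 became 82 with 1 FPKM added and 75 after quantile normalization. It was 111 after all time points were scaled to the same total. From 3-HAI to 6-HAI, 81 members (55.9%) rose at least 2.4-fold against 6.01% of expressed genes, and 0 fell (0.698% of expressed genes). The rule itself asks for a rise in that interval and over the whole of the first 6 hours, where 18% of expressed genes rose and 6.07% fell, so these counts describe the group and nothing is read from their distance to the background. With the fold alone, both intervals passed 2.4-fold in 61 genes, the first alone in 40, the second alone in 20, and neither in 24, whose rise was spread over both. The median member stood at 4.48 times its dry value at 3-HAI, and rose 2.54-fold from there, against 1.21 and 0.972 over expressed genes.

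Some of the 20 genes that passed 2.4-fold only after 3-HAI had a smaller rise by then, such as Glyma03g24020 at 1.88 times its dry value. The 20 also included some at high level. Glyma12g23150, on chromosome 12 from 25414899 to 25417225, had 28.7 FPKM before imbibition, then 24.0, 98.4, 48.8 and 21.0 FPKM through the later times. Glyma10g23790, on chromosome 10 from 30328446 to 30333043, had 13.5 FPKM before imbibition, then 17.2, 62.9, 16.8 and 15.8 FPKM through the later times, so its 12-HAI value was back at about its 3-HAI value. Glyma12g29471 had 3.50, 3.71, 24.4, 6.56 and 5.03 FPKM from dry to 24-HAI, and Glyma12g11650 had 1.21, 1.60, 18.3, 5.06 and 5.20 FPKM. The steepest step from 3-HAI to 6-HAI belonged to a low gene, Glyma12g35290, which went from 0.248 FPKM at 3-HAI to 5.03 at 6-HAI, 20.2-fold. In 3 members the value at 3-HAI was below that of the dry seed: Glyma12g23150 at 0.836 times, Glyma08g19230 at 0.890 times and Glyma08g20690 at 0.944 times. These genes were named after their values were seen.

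The rule also bears on the fall, since it places the maximum at 6-HAI and a low value at 24-HAI, and nothing is read from the distance of the counts that follow to the background. By 12-HAI, 76 of the 145 genes (52.4%) had fallen at least 2.4-fold, where 3.24% of expressed genes had, and 4.2% of the 18220 genes at 5 FPKM or more at 6-HAI. Another 48 lay between, and 21 (14.5%) kept at least the 6-HAI value divided by 1.5. At equal totals for all time points, 45 had fallen 2.4-fold and 44 had kept that much. In 60 members the 12-HAI value was already below that of 3-HAI, and in 9 it was below that of dry seeds. From 12-HAI to 24-HAI, 67 members fell at least 2.4-fold (46.2%, against 9.13% of expressed genes) and 3 rose (2.07%, against 16.4%). From 6-HAI to 12-HAI 0 rose, which the rule fixes (7.53% of expressed genes rose).

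Among genes at 10 FPKM or more at 6-HAI, Glyma02g42770 had the deepest fall to 12-HAI. It lies on chromosome 2 from 47745851 to 47747189 and had 5.31 FPKM before imbibition, then 25.7, 114, 5.46 and 5.07 FPKM through the later times, so that within 6 hours it was back at the level of the dry seed, and the 12-HAI value was 4.77% of the peak. Glyma12g36703 had 4.32, 12.5, 36.7, 3.62 and 13.1 FPKM from dry to 24-HAI, a drop to 9.86% at 12-HAI followed by a 3.61-fold rise. Glyma20g19630 had 0.949, 4.25, 11.7, 1.28 and 0.776 FPKM, and Glyma10g01690 had 0.562, 2.22, 10.04, 1.15 and 3.16 FPKM. Glyma12g34701, on chromosome 12, had 0.118, 9.29, 31.6, 4.17 and 1.29 FPKM. Glyma12g36703 and Glyma10g01690 are, with Glyma13g33780 (0, 4.76, 7.63, 1.20 and 3.05 FPKM, named after its values were seen), the 3 members that rose at least 2.4-fold after 12-HAI.

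At the other end, Glyma03g34760, on chromosome 3 from 42085098 to 42088214, had 13.8 FPKM before imbibition, then 25.2, 43.5, 42.6 and 13.4 FPKM through the later times, a plateau between 6 and 12-HAI with 98.0% of the 6-HAI value kept. Its maximum passed to 12-HAI under each of 3 other scalings of the time points. Glyma01g38905 kept 91.5%, with 0.1004, 1.81, 21.1, 19.3 and 7.99 FPKM, and Glyma12g32690 kept 88.5%, with 0, 3.60, 28.5, 25.2 and 6.93 FPKM. For both, the maximum passed to 12-HAI after quantile normalization and after scaling to the same total. Glyma17g13880 kept 86.4%, with 3.55, 9.34, 26.9, 23.3 and 11.0 FPKM, and its maximum passed to 12-HAI under the same scalings. Glyma14g40110 kept 81.5%, with 3.05, 8.71, 14.3, 11.7 and 4.58 FPKM, and its maximum passed to 12-HAI after scaling to the same total. For these 5 genes the place of the maximum rests on how the time points were scaled to each other.

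**Figure D3:**
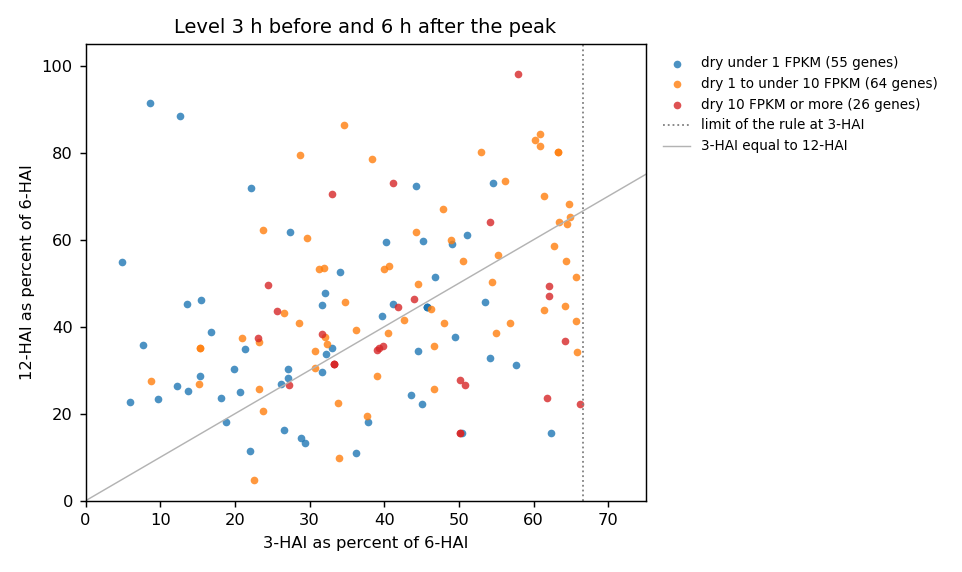
FPKM at 3-HAI (horizontal axis) and at 12-HAI (vertical axis), both as percent of the 6-HAI value, 1 point per gene, coloured by the level in dry seeds (55 genes under 1 FPKM, 64 from 1 to under 10, 26 at 10 or more). The dotted line is the limit of the rule at 3-HAI, the grey line marks equal values, and 60 genes with 12-HAI below 3-HAI lie under it.

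A narrow peak was marked by the ratio of the 6-HAI value to the highest of the other 4 values. Its median was 2.14, and in 53 genes (36.6%) the 6-HAI value was at least 2.4 times every other one. The second highest value fell at 12-HAI in 82 members, at 3-HAI in 57 and at 24-HAI in 6. The sharpest was Glyma02g42770 with 4.44, followed by Glyma12g05200 with 4.43, Glyma05g27740 with 4.27, Glyma13g32160 and Glyma11g13140 with 4.22 each, Glyma08g01601 with 4.01 and Glyma04g41990 with 3.89. Glyma18g15001, Glyma13g32070 and Glyma09g26100 came next with 3.78, 3.76 and 3.73. Glyma08g01601 went from 0.0815 FPKM in dry seeds to 7.75 at 3-HAI and 37.5 at 6-HAI, and then to 9.35 and 4.50. Glyma09g26100 had 0.915, 5.63, 21.5, 5.76 and 2.21 FPKM from dry to 24-HAI, Glyma18g15001 had 0.0254, 1.21, 9.81, 2.60 and 1.31 FPKM, and Glyma05g27740 had 0.425, 0.670, 6.94, 1.62 and 0.640 FPKM. Of the 10 sharpest genes, Glyma04g41990 alone was also among the 10 highest.

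The level in the dry seed ranged widely among members. In 55 genes (37.9%) the dry value was under 1 FPKM, and 3 of these, Glyma12g32690, Glyma13g37760 and Glyma13g33780, were listed at 0. The 55 genes rose from a median of 0.295 FPKM to 13.004 at 6-HAI, and 50 of them still had at least 2.4 times the dry value at 24-HAI. In the 26 genes with 10 FPKM or more in dry seeds, the median went from 16.6 to 84.9 FPKM at 6-HAI and to 13.2 at 24-HAI, and 18 of the 26 ended below the dry value. The 64 genes between had medians of 2.97 FPKM in dry seeds, 20.2 at 6-HAI and 5.11 at 24-HAI, with 18 below the dry value. Expressed genes of the same dry level give the background for these counts. Under 1 FPKM in dry seeds, at least 2.4 times the dry value was reached at 24-HAI by 90.9% of members and 90.5% of expressed genes. At 10 FPKM or more in dry seeds, 69.2% of members and 77.7% of expressed genes ended below the dry value, and between these levels 28.1% and 37.1% did. These shares were computed after the values were seen and were not tested. Over all members, 73 (50.3%) were at least 2.4-fold above dry seeds at 24-HAI with 1 FPKM or more, against 38.5% of expressed genes, and 14 (9.66%) were as far below, against 21.7%. The count of members at least 2.4-fold above was 48 after quantile normalization, with fold alone, beside 75 without it.

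Among members that were high in dry seeds and ended far below that level was Glyma07g34550, with 43.5 FPKM before imbibition, then 79.6, 124, 45.6 and 7.53 FPKM through the later times. Its value at 24-HAI was 0.173 times the dry value. Glyma11g08260 and Glyma11g08275, neighbours on chromosome 11 that share all 5 values, had 49.8, 103, 205, 31.9 and 9.67 FPKM from dry to 24-HAI, 0.194 times the dry value at the end. Glyma15g01610 had 35.4, 84.8, 128, 28.4 and 10.3 FPKM, and Glyma07g39490 had 16.5, 35.8, 57.6, 28.4 and 4.24 FPKM. The lowest ratio to the dry seed belonged to Glyma10g32380, with 3.71, 4.55, 9.82, 4.33 and 0.4998 FPKM, 0.135 times. Glyma07g34550, Glyma07g39490 and Glyma10g32380 were named after their values were seen.

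Position was not used by the rule. On either side, 25 of the 145 members (17.2%) had another member as the next gene on the chromosome, while members make up 0.435% of expressed genes. These percentages are unlike measures, since a next gene on either side counts and need not be expressed. The share of genes with such a neighbour was not computed for any other group, so nothing is read from their distance. Of the 25 members, 9 genes in 4 sets share identical values with their neighbours, so that each set gives 1 measurement. The sets are Glyma11g08260 with Glyma11g08275, Glyma04g04250 with Glyma04g04260, Glyma20g23090 with Glyma20g23100, and Glyma20g01091 with Glyma20g01100 and Glyma20g01106. The last set lies on chromosome 20 between 760954 and 768244 and had 16.6, 23.8, 71.5, 22.4 and 3.79 FPKM from dry to 24-HAI. Glyma20g23090 and Glyma20g23100 had 1.84, 6.44, 42.1, 14.8 and 5.73 FPKM. With 1 gene per set of identical values, 16 of 139 members (11.5%) were next to another member. These 16 genes formed 7 sets, and 7 of their 9 adjacent pairs lie on the same strand. The share of same-strand pairs over all neighbouring genes was not computed, so nothing is read from this count.

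On chromosome 13, Glyma13g37740, Glyma13g37750 and Glyma13g37760 follow each other on the minus strand between 38726181 and 38731558. Their values were 0.134, 7.17, 22.7, 6.72 and 2.31 FPKM from dry to 24-HAI for the first, 0.596, 43.1, 87.1, 32.8 and 9.22 FPKM for the middle gene, and 0, 13.4, 29.9, 6.68 and 2.90 FPKM for the last. All 3 were under 1 FPKM in dry seeds and fell to less than 50% of the peak by 12-HAI, with peak levels that differed 3.85-fold. On chromosome 12, Glyma12g32690, Glyma12g32710 and Glyma12g32725 lie on the plus strand between 36172634 and 36180915. Glyma12g32710 had 5.29, 27.0, 57.8, 14.8 and 3.39 FPKM and Glyma12g32725 had 3.17, 7.33, 18.1, 6.98 and 1.64 FPKM, both down by more than 50% at 12-HAI, whereas Glyma12g32690 kept its level to 12-HAI, as given above. The maximum of Glyma12g32690 lay at 12-HAI under the other scalings given for it above.

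Glyma11g13130 and Glyma11g13140 lie on the minus strand of chromosome 11, 1468 bp apart from the end of the first to the start of the next. They had 16.7, 85.8, 215, 76.6 and 20.5 FPKM and 1.88, 16.7, 70.2, 14.5 and 2.90 FPKM from dry to 24-HAI, in that order. A further pair, Glyma12g05190 and Glyma12g05200, lies on the minus strand of chromosome 12, 1109 bp apart, with 0.461, 17.1, 63.0, 17.8 and 4.06 FPKM and 0.0463, 1.16, 19.5, 4.41 and 1.12 FPKM. In both pairs the second gene started lower, peaked lower, by 3.06-fold and 3.23-fold, and had the sharper peak. On chromosome 5, the highest member, Glyma05g08400, has Glyma05g08380 as its neighbour, 9524 bp away on the same strand, with 0.195, 4.27, 27.7, 12.8 and 4.42 FPKM. On chromosome 2, Glyma02g18250 and Glyma02g18260 lie on opposite strands, 21938 bp apart, with 1.99, 10.7, 26.3, 14.2 and 9.17 FPKM and 10.04, 57.0, 136, 60.5 and 37.8 FPKM.

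The second highest member, Glyma18g01330, also has a member as its neighbour. Glyma18g01321, on the opposite strand 48 bp away, had 0.0330, 4.57, 16.7, 10.3 and 2.72 FPKM from dry to 24-HAI, 33.3 times lower than Glyma18g01330 at 6-HAI. With so short a gap and a library kit that does not mark the strand, reads of these genes may not be fully separable. The same limit applies to 3 members that the table lists on both strands, Glyma05g08400, Glyma05g08380 and Glyma07g30380. Their second entries also had the highest of their 5 values at 6-HAI, with 44.3, 1.74 and 3.42 FPKM.

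**Figure D4:**
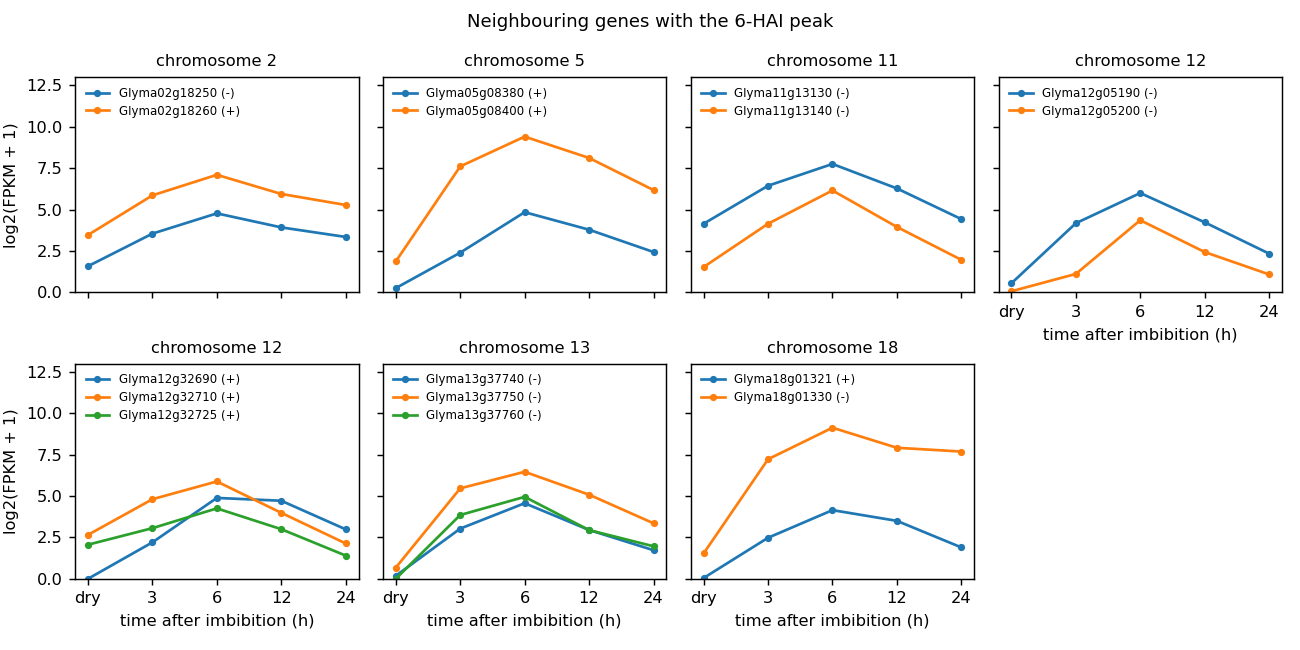
log2(FPKM + 1) against time after imbibition (evenly spaced time points) for the 7 sets of neighbouring genes on a chromosome whose values differ, 1 panel per set and 1 line per gene, with the strand in brackets. Every line has its highest point at 6 hours, and within a set the peak levels differ between 3.06-fold and 33.3-fold.

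Some genes next to members also had their maximum at 6-HAI. Of the 260 other genes next to a member, 169 were expressed, and 24 of them (14.2%) had their highest value at 6-HAI, where 5.92% of the expressed non-members did (6.33% of all expressed genes). Of the 24, 15 reached 5 FPKM at 6-HAI. The highest was Glyma19g00860, next to the top 10 gene Glyma19g00870, with 80.9, 162, 188, 114 and 72.3 FPKM from dry to 24-HAI, followed by Glyma06g45381, next to Glyma06g45370, with 24.9, 139, 179, 138 and 36.5 FPKM. Glyma06g45370 itself had 1.37, 102, 192, 154 and 60.3 FPKM. Some of the 24 lie close to the member, as Glyma06g12790 beside Glyma06g12780, so the limit on separating reads given above may apply to them. These neighbours were examined after the values had been seen, and the shares were not tested.

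Some members lay close to each other without being adjacent, for example Glyma14g27940 and Glyma14g27990 on chromosome 14 with 1 gene between them, at 0.207, 6.70, 48.9, 12.3 and 19.7 FPKM and 7.22, 39.9, 172, 62.5 and 40.6 FPKM from dry to 24-HAI. On chromosome 12, Glyma12g34660 and Glyma12g34701 are separated by 2 genes. Of the 145 members, 144 lie on chromosomes and 1 on a scaffold. Chromosome 12 held 15 members (10.3% of the group, with 4.25% of expressed genes), chromosome 13 held 12 (8.28% and 7.06%) and chromosome 8 held 10 (6.90% and 6.98%). The 15 include the neighbouring members of chromosome 12 given above, and these shares were not tested. The fewest, 3, lay on chromosome 16. The strands were used about equally, with 72 members on the minus strand (49.7%, and 49.5% of expressed genes).

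Members occupy short stretches of the genome. The median span from start to end, introns included, was 1754 bp, compared with 3789 bp over expressed genes and 4048 bp over genes at 5 FPKM or more at 6-HAI. A span under 1000 bp was found in 27 members (18.6%) and in 7.91% of expressed genes. At matched level, the 91 members between 10 and 100 FPKM at 6-HAI had a median span of 1762 bp, and the 11453 genes of that level one of 4070 bp. Genes with their highest value, 5 FPKM or more, at 6-HAI had a median of 3090 bp over 1462 genes. For the other time points it was 4037 bp in dry seeds, 4056 bp at 3-HAI, 5412 bp at 12-HAI and 3887 bp at 24-HAI. Among members, those under 1 FPKM in dry seeds had the shortest median, 1425 bp. FPKM divides by transcript length, and the part of length in the result was not tested.

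The same limits centred on 3-HAI or 12-HAI, with the 1.5-fold limit set against 6-HAI in both, gave 302 and 18 genes. The rules used these values. The 6-HAI rule asks for a further rise after 3-HAI and the 12-HAI rule for one after 6-HAI. Each rule puts the same 2.4-fold limit on the dry value. How far the further rise bears on the dry share was not tested. The median dry value of the members was 7.59% of the peak, against 28.9% for the 3-HAI group, and 37.9% of members were under 1 FPKM in dry seeds, against 8.28%. For the 12-HAI group these values were 3.58% and 66.7%. The peak was 2.14 times the second highest value at the median, beside 1.85 in the 3-HAI group and 2.87 in the 12-HAI group. The 3-HAI and 12-HAI rules limit the time points on both sides of the peak. The 6-HAI rule leaves 12-HAI free up to the peak, so these ratios rest on unlike limits. At 24-HAI, 26.2% of members were below the dry value, compared with 66.6% of the 3-HAI group and 5.56% of the 12-HAI group. The median span was 3062 bp for the 3-HAI group and 2521 bp for the 12-HAI group, both longer than the 1754 bp of the members. A span under 1000 bp was found in 8.28% of the 3-HAI group and 22.2% of the 12-HAI group, beside 18.6% of the members. A share like that of the members was thus seen in the 12-HAI group, of only 18 genes, and not in the 3-HAI group. These are descriptions without a test, and the time points on either side of each peak are unequally spaced. After median-ratio scaling the 3-HAI group shrank to 132 genes and after quantile normalization to 118, while the 6-HAI group had 124 and 155.

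**Figure D5:**
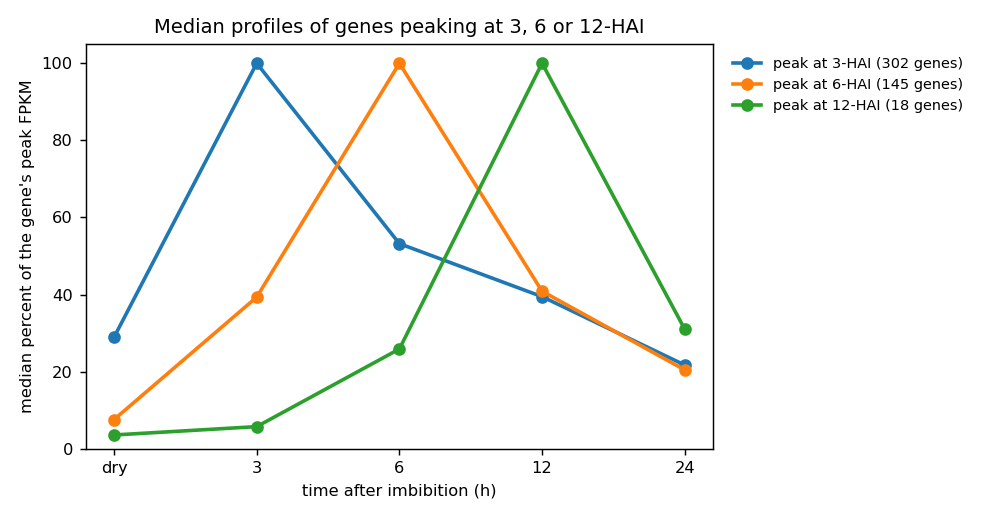
Median over genes of the FPKM as percent of each gene's peak value (vertical axis) against time after imbibition (evenly spaced time points), for the 145 genes with the 6-HAI peak and for the 302 and 18 genes that meet the same limits at 3-HAI and at 12-HAI. In dry seeds the lines start at 28.9% for the 3-HAI group, 7.59% for the 6-HAI group and 3.58% for the 12-HAI group, and by 24-HAI they end at 21.7%, 20.5% and 31.0%.

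In sum of FPKM, the 145 genes took up 0.0841% of the table before imbibition, and then 0.424%, 1.37%, 0.679% and 0.280% through the later times. The total over all genes itself fell from 1032950 in dry seeds to 692415 at 6-HAI and 544019 at 12-HAI, so that levels relative to the total differ from FPKM as deposited. After all time points were brought to 1 common total, 133 of the 145 genes still had their highest value at 6-HAI, as did 140 after quantile normalization and 144 after median-ratio scaling. The whole rule was met by 119, 118 and 110 of them.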

How the data were processed

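The authors sequenced RNA from soybean embryonic axes (TruSeq RNA v2, paired ends) in 10 libraries, 2 biological replicates of 20 seeds per time point. Per the paper's methods and the submitters' processing notes, reads were trimmed (Trimmomatic 0.30) and mapped to G. max genome version 1.1 (TopHat 2.0.9, Bowtie 2.1.0), and Cufflinks gave FPKM. In the deposited table a gene has a single FPKM for each time, from both replicates, combined in a way that is not stated, so that no test was possible. Column names gave the time points, and 0 columns were left without one. Of 54801 entries for 54154 genes, 647 genes had an entry on each strand, and the entry with the higher maximum was kept. Start positions are those of the table, whose smallest is 1. Members were found by the FPKM limits given in the Results. Steps were counted at 2.4-fold with the higher value at 1 FPKM or more. The analysis used Python 3.11.15, numpy 2.4.6, pandas 2.3.3, scipy 1.17.1 and matplotlib 3.10.9. The code for the limits was run on simulated profiles built to meet or to miss them. Its outcome was fixed by that design, so it checks the code and not the choice of limits. The members, the limits and the lists were chosen with earlier results of these data known. Genes were named by rule: the 10 highest and the 10 sharpest members, the 5 that kept most and least at 12-HAI among those at 10 FPKM or more, runs of 3 neighbours and pairs both at 20 FPKM, and the 3 genes on either side of each limit. The part of that rule that concerns annotated roles named 0 genes. Other genes are given as chosen after their values were seen, or as examples of a count. Other scalings, pseudocounts, minimum levels, fold limits and ways to count genes with 2 entries were tried as alternatives.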

Additional observations from a re-analysis of the deposited data

How the results depend on the processing

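No paired analysis was possible because the values are 1 per time point, and for the same reason no replicate could be left out. The number of members, 145, stayed between 103 and 191 except without a minimum at 6-HAI (1119) and with a minimum of 1 FPKM (220). After quantile normalization, members at least 2.4 times the dry value at 24-HAI numbered 48 and those as far below 31, compared with 75 and 15. At equal totals for all time points, those below numbered 9, members that had fallen 2.4-fold by 12-HAI 45 in place of 76, and members that kept the 6-HAI value divided by 1.5 44 in place of 21. With 1 gene per set of identical values, counted so over the whole table, the members held 1.503% of the total at 6-HAI (1.37% otherwise), and 16 rather than 25 were next to a member. The group peaking at 3-HAI had 132 genes after median-ratio scaling and 118 after quantile normalization (302 otherwise), and the group peaking at 12-HAI had 36 after quantile normalization (18 otherwise).

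Scalings of named genes were chosen after the values were seen. The log2 ratio of the 6-HAI value to the highest other value turned negative for Glyma03g34760 (-0.092 after median-ratio scaling, -0.32 after quantile normalization, -0.32 at equal totals), Glyma01g38905 (-0.069 after quantile normalization, -0.22 at equal totals), Glyma12g32690 (-0.087 and -0.17), Glyma17g13880 (-0.029 and -0.14), and, at equal totals, Glyma06g16610 (-0.077), Glyma14g40110 (-0.053) and Glyma08g20690 (-7.1e-05). Relative to the deposited values, the median over expressed genes moved on the log2(FPKM + 1) scale by -0.38 in dry seeds and 0.39 at 12-HAI at equal totals, by 0.21 in dry seeds after quantile normalization, and by 0.19 at 24-HAI after median-ratio scaling. The cause of these changes was not tested. The table holds no counts per gene, so how far counting error limits members near 5 FPKM was not computed.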
